A study of Mus musculus with 4 samples.

Results

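The 9 genes described are transcription factors of the chondrocyte lineage, measured in mouse articular cartilage. They are Sox4, Sox5, Sox6, Sox8, Sox9, Sox11, Trps1, Nkx3-2 and Scx, taken by gene symbol from the deposited expression table, so that 9 of its 24532 genes are described and all 9 were found. The study compared cartilage of young and adult wild-type C57BL/6 mice after sham surgery or injury, to ask why young cartilage regenerates better. It comprised 4 RNA-seq libraries, a sham and an injured one at each age, and each group was represented by 1 library of pooled mice, with more mice in the injured than in the control pools. The young mice were 3 weeks old. The titles give 12 weeks for the adult mice and another label gives 14 weeks, and the study's methods give a younger age than both. Injured tissue was taken on day 3, whereas the description of the adult sham sample runs from day 3 to day 14. The labels name surgery of the medial meniscus (DMM), while the methods describe a needle injury through the full thickness of the cartilage in the femoral groove of male mice and call the controls of the RNA samples uninjured. With 1 library per group there is no replicate spread, no difference below has a p-value, and age, surgery and library cannot be told apart where a library stands alone.

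Sox9 is the factor that commits mesenchymal cells to the chondrocyte lineage, and its protein switches on the genes of type II collagen, aggrecan and other cartilage matrix proteins together with its partners SOX5 and SOX6. All SOX proteins share a DNA-binding domain, the HMG box, that reads short A- and T-rich sequences, and they fall into subgroups by descent, with SOX8 next to SOX9 (SOXE), SOX5 next to SOX6 (SOXD) and SOX4 next to SOX11 (SOXC). TRPS1 is a GATA-type zinc finger repressor of growth plate chondrocytes, NKX3-2 is a homeodomain repressor that holds back chondrocyte maturation, and scleraxis, encoded by Scx, is the basic helix-loop-helix factor of tendon and ligament progenitors, which also marks the cells that build the junction of cartilage and tendon.

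Values are FPKM, counts of sequenced fragments divided by transcript length and library size, so that levels can be compared between genes. The FPKM of all genes summed to between 469939 and 533468 per library. The lowest FPKM fell on regular steps, and if 1 step is 1 fragment, the libraries held between 25800000 fragments in adult injured and 30800000 in adult sham cartilage. The adult sham library stood apart, with 26.5% of its summed FPKM in its 10 most abundant genes against 14.7% to 17.5% in the others. The 6 chondrocyte marker genes were above 1 FPKM in every library, with a summed level of 12518 FPKM in young sham and 10591 in young injured cartilage, with 3852 in the adult sham and 5099 in the adult injured library. Col2a1 made up most of each sum, at 9349, 7903, 3173 and 3750 FPKM in the same order. All 6 are also among the matrix genes activated by SOX9 that are described below. The sum is therefore not a separate measure of chondrocyte content. Markers of other tissues were present too. The summed level of 8 macrophage genes ran from 181.5 FPKM in young sham to 1773 FPKM in young injured cartilage, and that of 8 skeletal muscle genes was 1177 FPKM in adult sham against 348.6 to 502.7 FPKM elsewhere. In such bulk tissue fewer cells of a type and less RNA per cell cannot be told apart.

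Sox9 (chromosome 11, 112782210 to 112787757 in build GRCm38.p6, on which mm10 is based) was the most abundant of the 9 genes in every library. Its level was 42.3 FPKM in young cartilage after sham surgery and 25.4 after injury, against 31.2 and 31.4 in adult cartilage. The young sham library was thus the highest and the young injured library the lowest, and the adult libraries lay between them within 1.01-fold of each other. After injury the log2 ratio of FPKM + 1, with 1 added so that genes near 0 do not give extreme ratios, was −0.71 in young and 0.01 in adult mice. Neither value reached 2-fold, the size taken here as a change. In young mice 3.07% of the 18181 genes above 0 in at least 1 library had a lower ratio than Sox9, and in adult mice 34.0% did. Of these genes, 10891 reached 1 FPKM in every library, and the added 1 FPKM presses the ratios of weaker genes toward 0. Shares among genes of a like level were not computed, here or for the other shares of all genes given below.

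**Figure D1:**
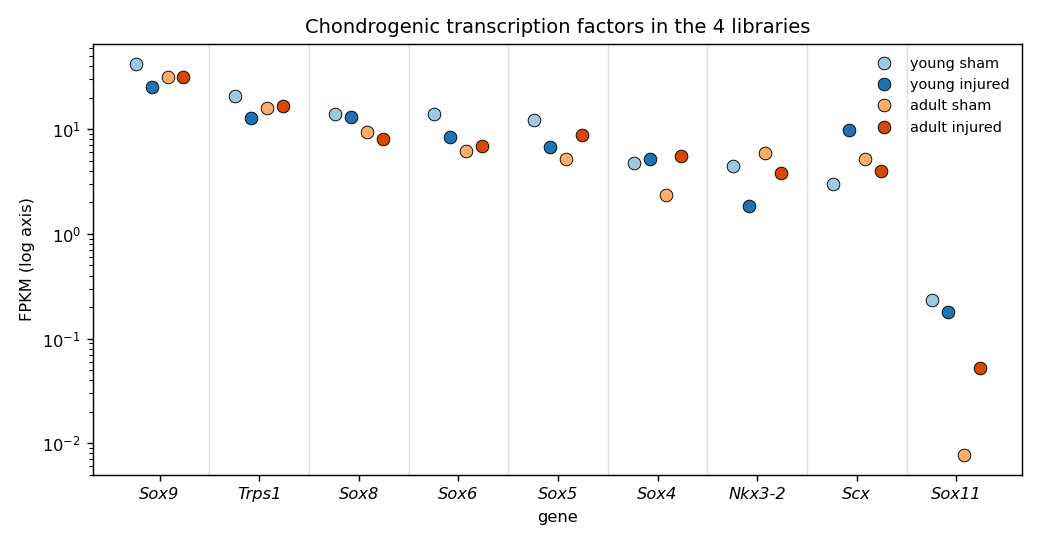
FPKM of the 9 transcription factor genes on a log axis, with 1 point for each of the 4 libraries (1 library per group, so there are no error bars). Sox9 is the highest gene in every library, Scx is highest in young injured cartilage at 9.75 FPKM, and Sox11 stays at or below 0.232 FPKM.

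Libraries can differ in their general level, and here they did. For the 10891 genes that reached 1 FPKM everywhere, the injured library lay at a median log2 ratio of −0.04 to its sham in young and of 0.23 in adult cartilage, and the median age ratio was −0.30 for adult against young sham and −0.07 for adult against young injured cartilage. Relative to these medians Sox9 was at −0.68 in young and −0.22 in adult mice after injury, at −0.12 in adult against young sham and at 0.37 in adult against young injured cartilage. The adult sign depended on the scaling. It turned from 0.01 to −0.32 after median-of-ratios scaling, a single factor per library chosen to keep the typical gene level, and to 0.11 with FPKM rescaled to equal totals. The young value stayed between −0.84 and −0.73 under the 4 scalings tried. In adult against young sham cartilage the log2 ratio of Sox9 was −0.43, and median-of-ratios scaling brought it to −0.00080.

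Trps1 (chromosome 15, 50654757 to 50890631) followed the profile of Sox9 closely. Its level was 20.8 FPKM in the young sham library and 12.9 in the young injured one, and 15.9 in adult sham against 16.6 in adult injured cartilage, the same order of the young libraries and the same near level of the adult ones. The ratio of Sox9 to Trps1 within a library does not depend on the scaling between libraries, and it was 2.03, 1.97, 1.96 and 1.90 in the same order. Likeness of profile was measured as the Euclidean distance between log2(FPKM + 1) values, each centred on its gene's own mean over the 4 libraries. Among 8056 other genes averaging 5 FPKM or more, the nearest to Sox9 was Trps1, at a distance of 0.0755, followed by Fry at 0.0806 and Ppp2r5b at 0.103. Sox5 was 1936th and Sox6 2200th in that order, at distances of 0.561 and 0.585. Such a distance over 4 libraries is a description of these libraries only. After injury the log2 ratio of Trps1 was −0.65 in young and 0.05 in adult mice, and the adult value also turned with the scaling, to −0.27 after median-of-ratios scaling. In adult against young sham cartilage it was −0.37, or 0.05 with that scaling.

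Sox5 and Sox6 encode the partners of SOX9. They lack its activation domain and help it to bind the enhancers of cartilage genes. Sox5 (chromosome 6, 143828425 to 144782287) was at 12.3 FPKM in young sham and 6.74 in young injured cartilage, with 5.18 in the adult sham and 8.77 in the adult injured library. Sox6 (chromosome 7, 115470872 to 116040776) measured 14.0 and 8.35 FPKM in the young libraries (sham, then injured) and 6.23 and 6.96 FPKM in the adult ones. Both were highest in young sham and lowest in adult sham cartilage. The young sham level exceeded the adult sham level, at log2 ratios of −1.10 for Sox5 and −1.05 for Sox6 in adult against young sham, and they were the only members of the 9 to fall at least 2-fold in that comparison. Of all genes above 0, 10.6% fell and 2.66% rose at least 2-fold there, 13.3% in all, so that 2 of 9 is not far from the general share. With median-of-ratios scaling the values were −0.72 and −0.66, and with quantile normalization neither reached 2-fold. Exons of an antisense gene overlap Sox5.

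Promoter sequences of Sox5 and Sox6 are shown because these genes were the pair lower in adult sham cartilage, each as 300 bases from 250 before to 50 after a RefSeq transcript start on GRCm38.p6, on the minus strand. Capitals mark matches, on either strand, to AACAAT and ACAAAG, which are core sequences of SOX binding sites, and to TAAGTG, a sequence that NKX3-2 binds. The Sox5 start lies within the gene. Sox6 has 6 start entries, of which the most upstream entry and the entry with the most SOX core matches are given. The files hold 1 value per gene and cannot say which start was used.
Sox5, chr6:143947057-143947356: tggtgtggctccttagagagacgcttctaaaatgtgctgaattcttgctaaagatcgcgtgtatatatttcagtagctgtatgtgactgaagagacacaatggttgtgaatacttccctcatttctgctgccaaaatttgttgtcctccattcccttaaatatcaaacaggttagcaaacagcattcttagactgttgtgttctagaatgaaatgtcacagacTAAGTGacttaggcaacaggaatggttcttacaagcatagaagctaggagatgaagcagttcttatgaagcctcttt
Sox6, most upstream entry, chr7:116038695-116038994: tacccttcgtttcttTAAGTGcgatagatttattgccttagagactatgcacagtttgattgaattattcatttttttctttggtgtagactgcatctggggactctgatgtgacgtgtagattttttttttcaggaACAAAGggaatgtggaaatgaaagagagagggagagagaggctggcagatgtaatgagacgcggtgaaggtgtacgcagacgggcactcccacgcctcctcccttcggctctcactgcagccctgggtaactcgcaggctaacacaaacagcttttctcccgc
Sox6, inner entry, chr7:115824661-115824960: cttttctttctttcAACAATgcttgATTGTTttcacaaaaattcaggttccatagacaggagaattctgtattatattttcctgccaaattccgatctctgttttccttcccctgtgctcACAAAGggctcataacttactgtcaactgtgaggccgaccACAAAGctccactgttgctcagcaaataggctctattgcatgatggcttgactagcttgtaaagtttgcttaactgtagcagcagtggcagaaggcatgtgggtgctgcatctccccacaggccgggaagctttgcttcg

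The inner Sox6 sequence held 2 matches to AACAAT, on opposite strands, and 2 to ACAAAG. The most upstream Sox6 sequence held 1 match to ACAAAG and 1 to TAAGTG, and the Sox5 sequence held 1 match to TAAGTG, 27 bases before the start. AACAAT occurred on either strand in 10.7%, ACAAAG in 18.7% and TAAGTG in 9.2% of the 32851 promoter sequences of this length. Promoter sequences were at hand for 6 of the 9 members, and none of these 3 sequences occurred in those of Sox4, Sox8, Sox11 and Nkx3-2. A match is a string of letters and not evidence of binding. The GC content was 39.7% in Sox5, 36.7% to 63.3% over the Sox6 entries, 52.0% in Sox4, 58.7% in Sox11, 66.3% in Sox8 and 66.7% in Nkx3-2, beside a median of 52.7% over all promoters.

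After injury in young mice the log2 ratios of Sox5 and Sox6 were −0.78 and −0.68, beside the −0.71 of Sox9. The genes of the trio and Trps1 therefore had ratios from −0.78 to −0.65. Within the library, Sox5 was at 29.0% of the Sox9 level in young sham and 26.6% in young injured cartilage, and Sox6 was at 33.1% and 32.9%. In adult mice the partners came apart. Sox5 went from 16.6% of Sox9 in the sham library to 27.9% in the injured one, whereas Sox6 was at 20.0% and 22.2%. The log2 ratios after injury in adult mice were 0.66 for Sox5 and 0.14 for Sox6. That of Sox5 stayed above 0 under every alternative tried, from 0.33 to 0.80, and that of Sox6 turned to −0.17 after quantile normalization. Sox6 exceeded Sox5 in 3 libraries, by 1.14-fold in young sham, 1.24-fold in young injured and 1.20-fold in adult sham, and was at 0.793 of Sox5 in adult injured cartilage.

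**Figure D2:**
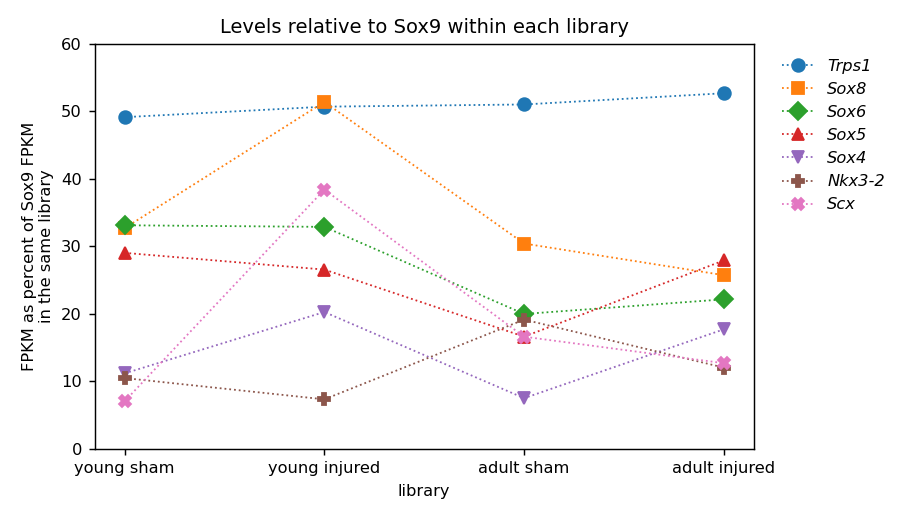
FPKM of 7 genes as a percent of the FPKM of Sox9 in the same library, a measure that the scaling between libraries does not change (1 library per group; the dotted lines only guide the eye). Trps1 stays between 49.2% and 52.7%, while Scx and Sox8 are highest in young injured cartilage, at 38.4% and 51.4%, and Sox5 and Sox6 are lowest in adult sham cartilage.

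The profiles nearest to Sox5 were those of Rarg, a retinoic acid receptor, at a distance of 0.0715, of Mvd, an enzyme of the mevalonate pathway, at 0.112, and of Fap, a cell surface protease, at 0.117. Those nearest to Sox6 were Stard4, a cholesterol carrier, at 0.0629, Pla2g7 at 0.0849 and the collagen gene Col16a1 at 0.0868. Sox6 was 317th in the order of likeness to Sox5.

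Sox8 is the closest relative of Sox9 among the 9 genes (chromosome 17, 25565893 to 25570686). It was at 13.8 FPKM in young cartilage after sham surgery and 13.0 after injury, against 9.48 and 8.08 in adult cartilage. Both young libraries were above both adult ones, and the log2 ratio after injury was −0.08 for young and −0.21 for adult mice, the latter −0.52 with median-of-ratios scaling. Sox8 was at 32.7% of the Sox9 level in young sham and 51.4% in young injured cartilage, where it was the second most abundant of the 9 genes. The adult against young log2 ratio was −0.50 between the sham and −0.63 between the injured libraries, and median-of-ratios scaling brought the first to −0.10. A noncoding antisense gene overlaps an exon of Sox8, and whether strand was used in counting is not given in the sources used here.

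Sox4 and Sox11 belong to the SOXC subgroup, which keeps skeletal progenitor cells alive and proliferating. Sox4 (chromosome 13, 28948919 to 28953699) was at 4.72 FPKM in the young sham library and 5.15 in the young injured one, and 2.34 in adult sham against 5.56 in adult injured cartilage. The adult sham library was the low one and the others were close to each other. The log2 ratio after injury was 0.98 in adult mice, just under 2-fold, and 0.10 in young mice. It reached 1.18 with FPKM rescaled to equal totals and 1.22 with 0.1 FPKM added in place of 1, and it was 0.60 to 1.18 over the scalings. In adult mice 7.26% of all genes had a higher ratio. Endothelial cells and B cell precursors also express Sox4. The summed level of 6 endothelial genes was 14.9 FPKM in young sham and 74.6 in young injured cartilage, with 16.8 in the adult sham and 61.6 in the adult injured library, and that of 9 genes of B cells and their precursors was 52.3, 74.7, 13.8 and 19.1 FPKM. Their part in the Sox4 values was not tested. A long noncoding gene on the opposite strand overlaps the last part of Sox4.

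Sox11 (chromosome 12, 27334268 to 27342718) was close to the limit of detection. It was at 0.232 FPKM in young cartilage after sham surgery and 0.179 after injury, against 0.00769 and 0.0528 in adult cartilage. If 1 step of the lowest FPKM is 1 fragment, these levels stand for 51, 39, 2 and 11 fragments. The 95% Poisson intervals, which cover counting error only, were 38.0 to 67.1, 27.7 to 53.3, 0.242 to 7.22 and 5.49 to 19.7 fragments. They hold no spread between pools of mice, and how often the intervals of other genes lie apart was not computed. No age difference is therefore read from them. The ratio depended on the amount added, with a log2 ratio of −0.29 in adult against young sham cartilage with 1 FPKM added. With 0.1 FPKM added it was −1.62, resting on the 2 fragments of adult sham cartilage.

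Nkx3-2 (chromosome 5, 41761483 to 41764220) was the member with the lowest ratio after injury at both ages. It was at 4.43 FPKM in the young sham library and 1.86 in the young injured one, and 5.97 in adult sham against 3.78 in adult injured cartilage, so that at each age the injured library was below its sham. The log2 ratio was −0.93 in young mice, where 1.57% of all genes had a lower one, and −0.54 in adult mice, where 4.35% did. Neither passed 2-fold on the scale with 1 FPKM added, although the FPKM themselves stood in a ratio of 2.38 between the young libraries, and the young value was −1.21 with 0.1 FPKM added and −1.16 with FPKM rescaled to equal totals. Both stayed below 0 under every alternative tried. If 1 step is 1 fragment, the levels stand for 201, 84, 315 and 167 fragments, with 95% Poisson intervals of 174.2 to 230.8 and 67.0 to 104.0 in the young and 281.2 to 351.8 and 142.6 to 194.3 in the adult libraries. Relative to Sox9, Nkx3-2 was at 10.5% in young sham and 7.33% in young injured cartilage, with 19.1% in the adult sham and 12.0% in the adult injured library, and it is the only member besides Scx with a higher level in adult than in young sham cartilage.

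Scx (chromosome 15, 76457411 to 76459468) was the only one of the 9 genes to change at least 2-fold after injury. It was at 2.97 FPKM in young cartilage after sham surgery and 9.75 after injury, against 5.18 and 3.98 in adult cartilage. The young injured library was above the other libraries, and the adult libraries lay between it and young sham. In young mice Scx rose by 1.44 on the log2 scale, and 2.45% of all genes had a higher ratio. Its ratio in adult mice was −0.31. In young mice 4.57% of all genes rose and 1.27% fell at least 2-fold, 5.83% in all, and of the 9 members 1 rose and 0 fell. Between the injured libraries Scx was lower in the adult, at a log2 ratio of −1.11, where 3.09% of all genes were at least 2-fold lower and 1.8% higher. Over the scalings the young ratio was 1.37 to 1.45 and the adult ratio −0.62 to −0.25. The young rise was 0.89, short of 2-fold, with 5 FPKM added. If 1 step is 1 fragment, the levels stand for 81, 265, 165 and 106 fragments, with 95% Poisson intervals of 64.3 to 100.7 in young sham and 234.1 to 298.9 in young injured cartilage.

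Scx lies inside the gene Bop1, on the opposite strand and without a shared exon, so that fragments from Bop1 introns could be counted in Scx if strand was ignored. Bop1, a ribosome assembly gene, was at 15.8 FPKM in the young sham library and 23.0 in the young injured one, and 20.9 in adult sham against 22.1 in adult injured cartilage. The level of Scx was 18.8% of that of Bop1 in young sham and 42.3% in young injured cartilage. Bop1 had a log2 ratio of 0.51 after injury in young mice, and its part in the rise of Scx was not tested.

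Of 7 genes of tendon and fibrous tissue, 1 rose and 2 fell at least 2-fold after injury at each age, and their median log2 ratio was −0.01 for young and 0.30 for adult mice, beside 0.00 and 0.14 over all genes. Of all genes, 4.57% rose and 1.27% fell in young mice and 6.9% rose and 1.46% fell in adult mice, which is also the background of the fibroblast counts given with this list. Col1a1, the type I collagen chain of tendon and bone, rose in young mice from 202.5 to 615.0 FPKM and in adult mice from 223.2 to 740.6 FPKM. Thbs4, a tendon matrix protein, fell in young mice from 55.9 to 21.5 FPKM and in adult mice from 695.5 to 91.8 FPKM. Fibromodulin (Fmod) fell from 1590 to 757.6 FPKM and from 1057 to 444.2 FPKM. The adult sham library also had the highest summed level of skeletal muscle genes, 1177 FPKM. The part of muscle or other attached tissue in the adult falls was not tested. The tendon factor Mkx stayed at 3.23 and 3.21 FPKM in the young and was at 1.72 and 2.36 FPKM in the adult libraries. Tenomodulin (Tnmd), which scleraxis activates in tendon, was at 2.04 and 1.82 FPKM in the young and at 0.0490 and 0.588 FPKM in the adult libraries. The summed level of 7 fibroblast genes was 1868 FPKM in young sham and 5078 in young injured cartilage, with 1875 in the adult sham and 7228 in the adult injured library, and Dcn and Lum, named like Dpt after their values were seen, held most of it. Of the 7, 2 rose and 0 fell at least 2-fold in young injury, and 3 rose and 1 fell in adult injury. Dpt was the one that fell and went from 78.8 to 36.7 FPKM. Their part in the Scx values was not tested.

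**Figure D3:**
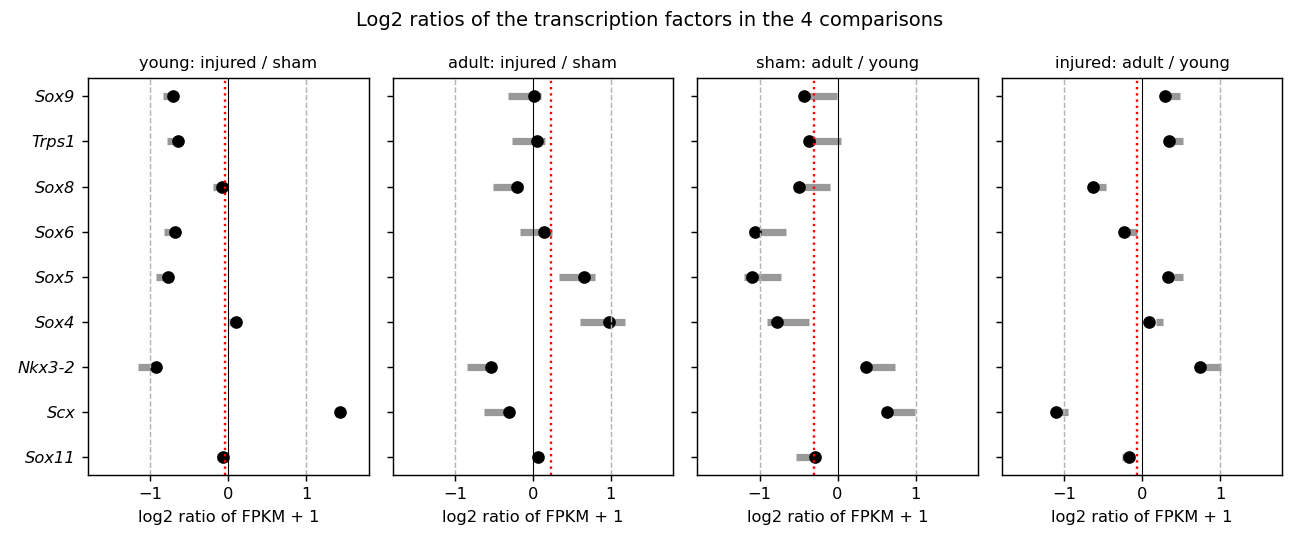
Log2 ratios of FPKM + 1 of the 9 genes in the 4 comparisons (black points, 1 library per group), with the range over 4 other scalings of the libraries as grey bars, the median of genes expressed in all libraries as a red dotted line and 2-fold as dashed lines. Scx lies past 2-fold in young injury at 1.44, Sox5 and Sox6 lie past it in adult against young sham at −1.10 and −1.05, and the bars reach both sides of 0 for Sox9, Trps1 and Sox6 in adult injury and for Trps1 in adult against young sham.

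Over the 9 genes, 7 were lower in young injured than in young sham cartilage and 2 were higher, with a median log2 ratio of −0.65, where the median of all genes was 0.00. After injury in adult mice 6 were higher and 3 lower, with a median of 0.05 against 0.14 for all genes, and none passed 2-fold, where 6.9% of all genes rose and 1.46% fell, 8.37% in all. In adult against young sham cartilage 7 were lower and 2 higher, with a median of −0.43 against −0.15. Between the injured libraries 5 were higher and 4 lower in the adult, with a median of 0.09 against −0.04, and Scx alone passed 2-fold, where 4.89% of all genes did in either direction. The comparisons share libraries and are not independent of each other.

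The rest of the Sox family was mostly silent. Of 13 other Sox genes, 5 were at 0 in every library, and with the 6 Sox members 8 of 19 Sox genes reached 1 FPKM in each library. Sox9 made up 44.3% of the summed FPKM of these 19 genes in young cartilage after sham surgery and 35.8% after injury, against 51.4% and 43.2% in adult cartilage. The Sox5 and Sox6 share was 27.6%, 21.3%, 18.8% and 21.6%. Sox18, a factor of blood and lymph vessel endothelium, was the only one of the 8 other Sox genes above 0 to change after injury, and it rose in young mice from 1.77 to 6.48 FPKM and in adult mice from 1.91 to 6.76 FPKM, by 1.43 and 1.42 on the log2 scale. With 5 FPKM added Sox18 was at 0.76 in young mice, and both its ratios were then short of 2-fold. The endothelial marker genes rose beside it, 5 of 6 at least 2-fold at each age, with medians of 1.92 and 1.45, where 4.57% of all genes rose in young and 6.9% in adult mice. Sox12, the third SOXC gene, was at 2.84, 2.37, 1.86 and 1.88 FPKM, and Sox13, the third SOXD gene, at 2.30, 1.79, 1.86 and 1.88 FPKM. Sox10, a factor of glia and melanocytes, was at 0.141 and 0.0351 FPKM in the young libraries and was listed at 0 in the adult ones.

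Of 18 matrix and cartilage genes that SOX9 and its partners activate, 0 rose and 1 fell at least 2-fold after injury in young mice, with a median log2 ratio of −0.19, where 4.57% of all genes rose and 1.27% fell. In adult mice 7 rose and 1 fell, where 6.9% and 1.46% of all genes did, with a median of 0.56, and the number changed in either direction was 5 rather than 8 after median-of-ratios scaling. Col2a1, the type II collagen gene, was at 9349 FPKM in the young sham library and 7903 in the young injured one, and 3173 in adult sham against 3750 in adult injured cartilage. Its level was 221.1 times that of Sox9 in young sham, 311.4 times in young injured, 101.8 times in adult sham and 119.4 times in adult injured cartilage. Aggrecan (Acan) was at 405.3 and 487.1 FPKM in the young libraries, a log2 ratio of 0.26, and rose from 214.4 to 559.0 FPKM in adult mice. It thus stood at 9.59 times the Sox9 level in young sham and 19.2 times in young injured cartilage, and at 6.88 and 17.8 times in the adult libraries.

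Between the sham libraries 12 of the 18 matrix genes were at least 2-fold lower and 2 at least 2-fold higher in the adult, where 10.6% and 2.66% of all genes were, with a median log2 ratio of −1.67, whereas Sox9 was at −0.43. The 2 higher were Chad, at 2781 FPKM in young and 20538 in adult sham cartilage, and Comp, at 1324 and 7203 FPKM. With them the summed level of the 18 genes was 28059 FPKM in young sham and 37214 in adult sham cartilage. Chad was also the gene that fell at least 2-fold in adult injury, to 8281 FPKM. Matn1, the matrilin of immature cartilage, differed most. It was at 1661 FPKM in young sham and 823.4 in young injured cartilage, with 2.65 in the adult sham and 16.8 in the adult injured library. Matn3 was at 391.8 and 355.8 FPKM in the young and at 2.30 and 1.48 FPKM in the adult libraries, and Col9a1, a chain of type IX collagen, at 955.4, 687.2, 40.9 and 161.5 FPKM. Papss2, which makes the sulfate donor for proteoglycans, was at 142.9, 134.5, 17.6 and 62.5 FPKM. Col9a1, Matn1 and Papss2 rose after injury in adult mice from these low sham levels and stayed below both young levels. After injury 8 of these 18 genes were at least 2-fold lower in the adult than in the young library and 2 were higher, where 3.09% and 1.8% of all genes were. The number lower was 5 with FPKM rescaled to equal totals. Ucma, a secreted protein of juvenile cartilage, reached 536.9 FPKM in the young injured library and 111.6 FPKM in the adult one. The skeletal muscle genes, which were highest in adult sham, were all 8 lower after injury in adult mice, 6 of them at least 2-fold, where 1.46% of all genes fell, and their part in the adult ratios was not tested.

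**Figure D4:**
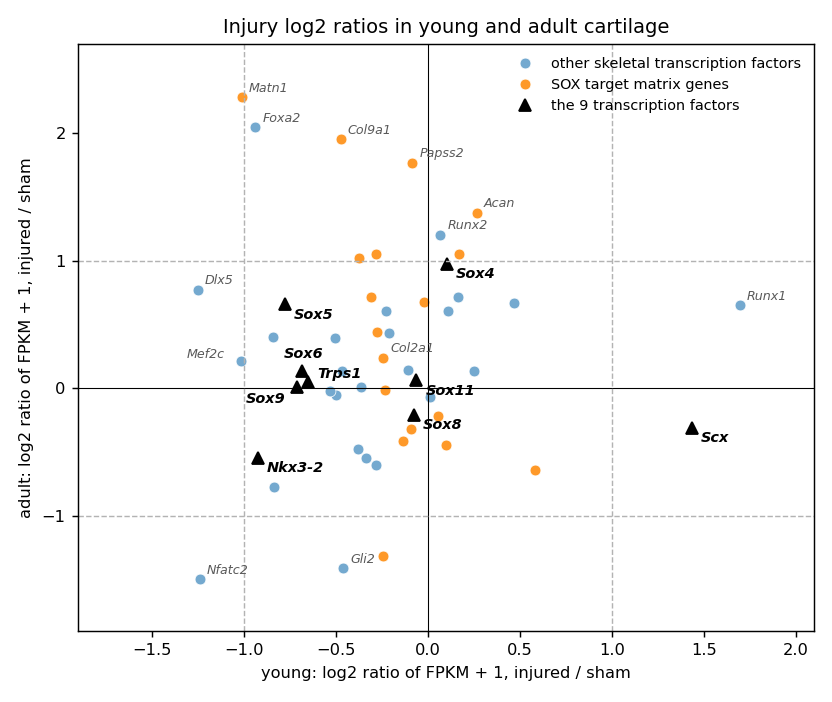
Log2 ratios of FPKM + 1, injured over sham, in young (horizontal) and adult (vertical) cartilage for the 9 genes (triangles), 18 SOX target matrix genes and 25 other skeletal transcription factors (1 library per group; dashed lines mark 2-fold). Sox9, Sox6 and Trps1 lie between −0.71 and −0.65 in young and between 0.01 and 0.14 in adult mice, while Matn1, Col9a1, Papss2 and Acan lie above 2-fold in adult mice.

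Among 25 other transcription factors of the skeleton, 1 rose and 3 fell at least 2-fold after injury in young mice, and 2 rose and 2 fell in adult mice, with median log2 ratios of −0.36 and 0.14. Over all genes 4.57% rose and 1.27% fell in young mice and 6.9% rose and 1.46% fell in adult mice, so that the numbers that rose were near the general share. Mef2c, a factor of chondrocyte hypertrophy, fell from 20.9 to 9.83 FPKM in young mice and was at 9.34 and 11.0 FPKM in the adult libraries. Foxa2, which also acts in hypertrophic chondrocytes, was at 13.9 and 6.78 FPKM in the young libraries and rose from 3.00 to 15.5 FPKM in the adult ones. Dlx5, a homeodomain factor of chondrocyte and osteoblast maturation, fell from 11.1 to 4.10 FPKM in young mice and was at 19.3 and 33.8 FPKM in adult mice. Runx2, the osteoblast and hypertrophy factor that NKX3-2 represses, was at 4.11 and 4.34 FPKM in the young and rose from 2.60 to 7.31 FPKM in the adult libraries, a log2 ratio of 1.21 that fell short of 2-fold with median-of-ratios scaling and with quantile normalization. The level of Sox9 was 10.3 times that of Runx2 in young sham, 5.85 times in young injured, 12.0 times in adult sham and 4.30 times in adult injured cartilage, lower after injury at both ages. Sp7, which acts after Runx2 in bone formation, was at 20.3, 17.2, 20.1 and 31.1 FPKM. Runx1 rose from 2.26 to 9.55 FPKM in young mice and was at 2.20 and 4.02 FPKM in adult mice, and macrophages, whose 8 marker genes rose at least 2-fold at both ages, also express it. Nfatc2 fell at both ages, from 3.97 to 1.11 FPKM and from 5.21 to 1.20 FPKM, and Gli2, a factor of Hedgehog signaling, fell from 7.84 to 2.33 FPKM in adult mice. Between the sham libraries Dlx6 and Prrx1 were at least 2-fold higher in the adult, at 3.77 against 0.670 and 15.4 against 6.38 FPKM, and Shox2, a limb patterning factor, was lower, at 5.30 FPKM and a log2 ratio of −1.34, which fell short of 2-fold with median-of-ratios scaling and with quantile normalization. Of the 25 factors 2 were higher and 3 lower in that comparison, where 2.66% of all genes were higher and 10.6% lower, and this turned to 4 higher and 1 lower with median-of-ratios scaling and with quantile normalization.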

How the data were processed

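The data were 4 RNA-seq libraries of pooled mouse articular cartilage. The values deposited by the authors are gene-level FPKM on mm10, from poly-A selected, stranded, paired-end libraries; the submitters' processing notes name HISAT2 2.1.0, StringTie 1.3.4d, STAR and SAMtools without their roles. Columns were matched to samples by name. Log2 ratios of FPKM + 1 were calculated for 4 comparisons over the 18181 genes above 0 in at least 1 library, and 2-fold or more was taken as changed. With 1 library per group no test was run. The alternatives were 0.1 or 5 FPKM added, a filter of 1 FPKM in 1 or more libraries, thresholds of 1.5-fold and 3-fold, quantile normalization, rescaling to equal totals (TPM) and scaling by median of ratios, and, chosen after seeing the data, rescaling without the 10 most abundant genes of each library. Fragment numbers are conditional on 1 step of FPKM times transcript length, over 17545 genes with 1 transcript, being 1 fragment, and transcript lengths came from GENCODE M21. Gene coordinates and promoters were from RefSeq on GRCm38.p6.

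The members and gene lists were chosen with earlier results of these data known. Named genes were all members, the listed genes changed at least 2-fold (at most 4 per list and comparison), 10 fixed genes of these lists, and the 3 profiles nearest to Sox9, Sox5 and Sox6. Bop1 was added after its position was seen, and S100b, Chad, Comp and a few further matrix genes after their values were. Scripts were tested on simulated data. Python 3.11.15, numpy 2.4.6, pandas 2.3.3, scipy 1.17.1 and matplotlib 3.10.9 were used.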

Additional observations from a re-analysis of the deposited data

Results flagged for a closer look

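The log2 ratios after injury had opposite signs in young and adult mice for 6 of the 9 transcription factors. With 1 library per group the difference between the ages was not tested for any of these genes. The difference, young minus adult, was 1.75 for Scx, −1.44 for Sox5, −0.82 for Sox6, −0.72 for Sox9, −0.70 for Trps1 and −0.13 for Sox11. The adult values of Sox9, Trps1 and Sox6 turned below 0 under some scalings, where their signs were the same at both ages, and those of Scx and Sox5 kept their sign.

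Opposite signs were also found for genes of the lists, again untested. Among the matrix genes named by rule the difference was −3.30 for Matn1, −2.43 for Col9a1, −1.86 for Papss2 and −0.48 for Col2a1. Col9a2, Col9a3, Col11a1, Col11a2 and Hapln1 were likewise lower after injury in young and higher in adult mice. Comp, Lect1 and 3110079O15Rik went the other way. Comp was at 0.58 in young and −0.64 in adult mice. Scaling was not varied for these further genes one by one. Among transcription factors it was −2.99 for Foxa2, −2.03 for Dlx5, −1.25 for Shox2, −1.23 for Mef2c, −0.83 for Sp7, −0.25 for Sox13 and −0.20 for Sox12. Among hypertrophic and tendon genes it was −2.57 for Col10a1, 1.01 for Alpl, −0.71 for Tnmd and −0.31 for Mkx. The adult values of Sox12, Sox13, Mef2c and Col2a1 turned below 0 after median-of-ratios scaling, and that of Mkx after quantile normalization, so that their signs were then the same at both ages.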

How the results depend on the processing

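No paired analysis was possible because each group held 1 library. Depth limits Sox11 most, and levels below about 1 FPKM are compressed by the added 1. The number of members changed at least 2-fold was 1 in young injury, 0 in adult injury, 2 in adult against young sham and 1 in adult against young injured cartilage. With 0.1 FPKM added these became 2, 1, 3 and 1, the third through Sox11, and with 5 FPKM added those of young injury and of both age comparisons were 0. Rescaling to the same sum gave 2, 1 and 2 for young injury, adult injury and adult against young injured. Median-of-ratios scaling, quantile normalization and rescaling without the 10 most abundant genes each gave 0 for adult against young sham, and the last also gave 0 for adult against young injured. A threshold of 1.5-fold gave 6, 2, 4 and 3 in the order above, and one of 3-fold gave 0 wherever the number was above 0. For the SOX target genes, the 8 changed in adult injury were 5 after median-of-ratios scaling or rescaling without the 10 most abundant genes, 4 after quantile normalization and 3 at 3-fold, the 1 in young injury was 0 at 3-fold, and the 10 in adult against young injured were 6 at 3-fold. Of the latter, the 8 that were lower became 5 with rescaling to the same sum, with or without the 10 most abundant genes, and 6 with median-of-ratios scaling or quantile normalization. For the other skeletal factors, the 4, 4, 5 and 4 changed became 8, 7 and 8 in the first 3 comparisons with 0.1 FPKM added, 1 in each comparison with 5 FPKM added or at 3-fold, and 7, 12, 11 and 9 at 1.5-fold. In young injury, all 9 members kept their direction under the alternatives tried; the signs that turned were those of Sox9, Trps1 and Sox6 in adult injury and of Trps1 in adult against young sham.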

Other observations

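Of 8 genes of hypertrophic chondrocytes, the maturing cells in which Sox9 activity gives way to Runx2, 4 were at least 2-fold higher and 1 lower in adult against young sham cartilage, where 2.66% of all genes were higher and 10.6% lower. Between the injured libraries 5 were higher and 0 lower in the adult, where 1.8% and 3.09% of all genes were. The median log2 ratios were 1.37 and 1.48. The gene lower in adult sham was Panx3, a channel protein named after its values were seen, at 7.59 against 18.2 FPKM, and between the injured libraries it was at a log2 ratio of −0.35. Ibsp, a bone sialoprotein, was at 369 and 604.9 FPKM in the young and at 4136 and 4218 FPKM in the adult libraries, and Alpl, the phosphatase of mineralizing tissue, at 61.3, 98.8, 676.4 and 536.8 FPKM. Ihh, the signal of prehypertrophic cells, was at 2.59 and 1.34 FPKM in the young and fell from 16.6 to 7.55 FPKM in the adult libraries. Osteoblasts also express Ibsp and Alpl. The summed level of 7 osteoblast genes was 401.1 FPKM in the young sham library and 838.9 FPKM in the young injured one. The adult sums were 1034 and 1580 FPKM in the same order. Col1a1, also one of the tendon genes above, held 202.5 and 615.0 FPKM of the young sums and 223.2 and 740.6 FPKM of the adult ones. Of the 7 genes, 2 rose and 0 fell at least 2-fold with injury at each age. Their median log2 ratios were 0.08 (young) and 0.61 (adult), beside 0.00 and 0.14 over all genes. The sums are therefore not a measure of osteoblasts alone.

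After injury, Mmp13, a collagenase, rose in young mice from 25.3 to 473.7 FPKM and in adult mice from 21.2 to 518.2 FPKM. Col10a1, the collagen of hypertrophic cartilage, was at 337.9 and 302.2 FPKM in the young libraries and rose from 458.7 to 2446 FPKM in the adult ones. Spp1 rose from 396.7 to 2338 FPKM in young mice and was at 2722 and 4953 FPKM in the adult libraries, and macrophages also express it.

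The summed level of 7 erythroid genes was 9674 FPKM in the young sham library and 18440 in the young injured one, and 6955 in adult sham against 3031 in adult injured cartilage. Of 5 genes of glia and Schwann cells, only S100b, which chondrocytes also express, was above 2 FPKM, at 100.9 to 166.6 FPKM.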
